A study of Mus musculus with 10 samples.

Results

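The Ccl5, Ccl9, Ccl6, Ccl3 and Ccl4 genes form a cluster of CC chemokine genes on mouse chromosome 11, and the loops around it were described here in the 5 Hi-C loop lists of a macrophage priming study. A loop is a pair of 10 kb bins with its number of contacts (ligated read pairs joining the bins) as given in a list. A loop was taken when an anchor bin overlapped the 100 kb on either side of the transcription start site (TSS) of 1 of the 5 genes in the GENCODE annotation of GRCm38 (mm10). The 5 windows overlap and together touch 34 bins, chr11:83430001-83770000. They held 137 distinct bin pairs of the 153264 in all lists, with 69 loops in the M0[CTR] list, 60 in M2[IL-4] and 79 in M2p[pIL-4], beside 66 in the IFNG and 64 in the pIL-4 + IFNG list.

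All cells were bone marrow-derived macrophages of wild type female C57BL/6 mice aged 2-3 months, differentiated with M-CSF and treated on day 6. M0[CTR] cells received no further cytokine. M2[IL-4] cells had IL-4 at 20 ng/ml for 24 h, and M2p[pIL-4] cells the same followed by washing and 24 h of rest. IFNG cells had IFNG at 20 ng/ml for 3 h, and pIL-4 + IFNG cells were primed and rested as above before the 3 h of IFNG. Each group has 2 samples in the labels but 1 merged loop list, so no value below has a replicate check. All intervals cover counting error only, and a test on 2 lists compares those lists, not the conditions. The lists held between 53424 loops (M0[CTR]) and 67728 loops (M2p[pIL-4]), with 2174945 to 2787117 contacts in all. A bin pair that a list does not hold was not called there, which does not give its contacts. The labelled cell type could not be checked, since loop lists hold no expression.

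CC chemokines are small secreted proteins that attract leukocytes through G protein-coupled receptors, and macrophages are a main source of them during inflammation. Genes of such a cluster lie next to each other through tandem duplication, and several can be switched on together by inflammatory signals. Chromatin loops join distant sites, and CTCF, a zinc finger protein that binds DNA in an orientation, is known to stop loop extrusion by cohesin most often where a pair of its sites face each other.

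From the centromeric side, Ccl5 lies at chr11:83525778-83530518 on the minus strand. Ccl5 encodes RANTES, a ligand of CCR1 and CCR3. Ccl9 (chr11:83572919-83578636) and Ccl6 (chr11:83587882-83593087), both on the minus strand, encode rodent chemokines that signal through CCR1, and their TSSs lie 48.1 and 62.6 kb from that of Ccl5. Ccl3 (chr11:83647844-83649355, minus strand) and Ccl4 (chr11:83662584-83664683, plus strand) encode macrophage inflammatory proteins. Their TSSs lie 118.8 and 132.1 kb from that of Ccl5. The identifiers are ENSMUSG00000035042.2 (Ccl5), ENSMUSG00000019122.8 (Ccl9), ENSMUSG00000018927.3 (Ccl6), ENSMUSG00000000982.5 (Ccl3) and ENSMUSG00000018930.3 (Ccl4). Beyond Ccl4 follow Wfdc17, Wfdc18 and Wfdc21, which encode whey acidic protein domain proteins, and then Heatr6.

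The 37 anchor bins near the chemokine genes were searched on both strands for the 14-base CTCF consensus, with 1 mismatch allowed. The 6 matches shown are those in bins that hold the cluster's main anchors, each read 5′ to 3′ along its own strand from the RefSeq GRCm38.p6 genome with 20 bases on either side, all in sequence with no annotated gene. Capitals mark the consensus, with a base outside it in lower case.
Between Ccl5 and Ccl9, chr11:83556515-83556568, plus strand: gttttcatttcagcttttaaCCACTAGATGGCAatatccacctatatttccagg
Between Ccl5 and Ccl9, chr11:83562832-83562885, plus strand: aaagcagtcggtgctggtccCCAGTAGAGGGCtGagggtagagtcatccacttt
In the Ccl9 TSS bin, chr11:83571388-83571441, minus strand: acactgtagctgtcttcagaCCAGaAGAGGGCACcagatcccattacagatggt
Between Ccl6 and Ccl3, chr11:83626311-83626364, minus strand: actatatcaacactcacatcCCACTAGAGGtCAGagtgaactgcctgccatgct
Between Wfdc18 and Wfdc21, chr11:83739415-83739468, minus strand: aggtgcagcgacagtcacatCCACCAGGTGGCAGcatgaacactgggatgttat
Before the Wfdc21 TSS, chr11:83745695-83745748, minus strand: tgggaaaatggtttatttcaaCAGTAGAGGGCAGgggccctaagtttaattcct
Both matches between Ccl5 and Ccl9 lie on the plus strand and the other 4 on the minus strand, so that the former face the latter. The match between Wfdc18 and Wfdc21 has no mismatch. Of the 4 matches not shown, 2 on the centromeric side of Ccl5 and 1 in the bin chr11:83780001-83790000, beyond the others, lie on the plus strand, and 1 in an intron of Ccl6 on the minus strand. A match is a run of letters, not a measured binding site.

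Of the 37 anchor bins near the chemokine genes, 10 held a match (27.0%), beside 26.1% of the 11875 sequenced 10 kb bins of chromosome 11 and 35.2% of the 5275 bins that were an anchor there in any list. Among the 25 bin pairs called in all 5 lists, 5 (20%) joined bins with matches facing each other, 2 had matches on the same strand and 0 had matches facing away. Over chromosome 11, 19.3% of the 1514 bin pairs called in all lists joined facing matches and 4.82% matches facing away. Matches on the same strand were joined by 18.2% there, beside 8% near the chemokine genes. The share of facing matches near the chemokine genes is thus near that of the chromosome. The other 2 shares are lower but rest on few bin pairs and were not tested.

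The cluster was dense in loops in every list. Ccl5 had 61 loops within 100 kb in M0[CTR], then 52 in M2[IL-4] and 66 in M2p[pIL-4], beside 56 in the IFNG and 50 in the pIL-4 + IFNG list. Ccl9 had 65, 55, 73, 61 and 60 in the same order, and Ccl6 58, 52, 72, 59 and 59. Ccl3 had 54, 46, 68, 57 and 59, and Ccl4 59, 52, 75, 62 and 62. All 5 genes thus had their highest number in M2p[pIL-4], and their lowest in M2[IL-4] except Ccl5, whose lowest was in pIL-4 + IFNG. M2p[pIL-4] is also the longest list, and this order depends on list length. With equally long lists (described below), M0[CTR] had the most loops near the 5 genes, 69 beside 55 in M2p[pIL-4]. The fewest, 48, were then in pIL-4 + IFNG. The median over 21755 protein-coding genes was 6, 7, 8, 7 and 8 loops, and the 90th percentile 42, 46, 52, 44 and 52. Ccl3 was level with that percentile in M2[IL-4] and Ccl5 under it in pIL-4 + IFNG. The 5 genes share most of these loops and are not independent of each other.

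In the TSS bins themselves the genes differed. The Ccl9 TSS bin anchored 10 loops in M0[CTR], then 7 in M2[IL-4] and 7 in M2p[pIL-4], beside 7 in the IFNG and 10 in the pIL-4 + IFNG list. The Ccl4 TSS bin anchored 1, 1, 2, 2 and 4, and the Ccl3 TSS bin 4, 2, 4, 5 and 6. The Ccl5 TSS bin anchored 4, 3, 5, 4 and 3 loops and the Ccl6 TSS bin 5, 4, 7, 3 and 3. Ccl9 was therefore the main anchor among the TSS bins in 4 lists and level with Ccl6 in M2p[pIL-4], and the Ccl4 TSS bin had its most loops in pIL-4 + IFNG. The Ccl3 TSS bin also holds the TSS of Rpl9-ps1, so its loops cannot be given to Ccl3 alone.

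**Figure D1:**
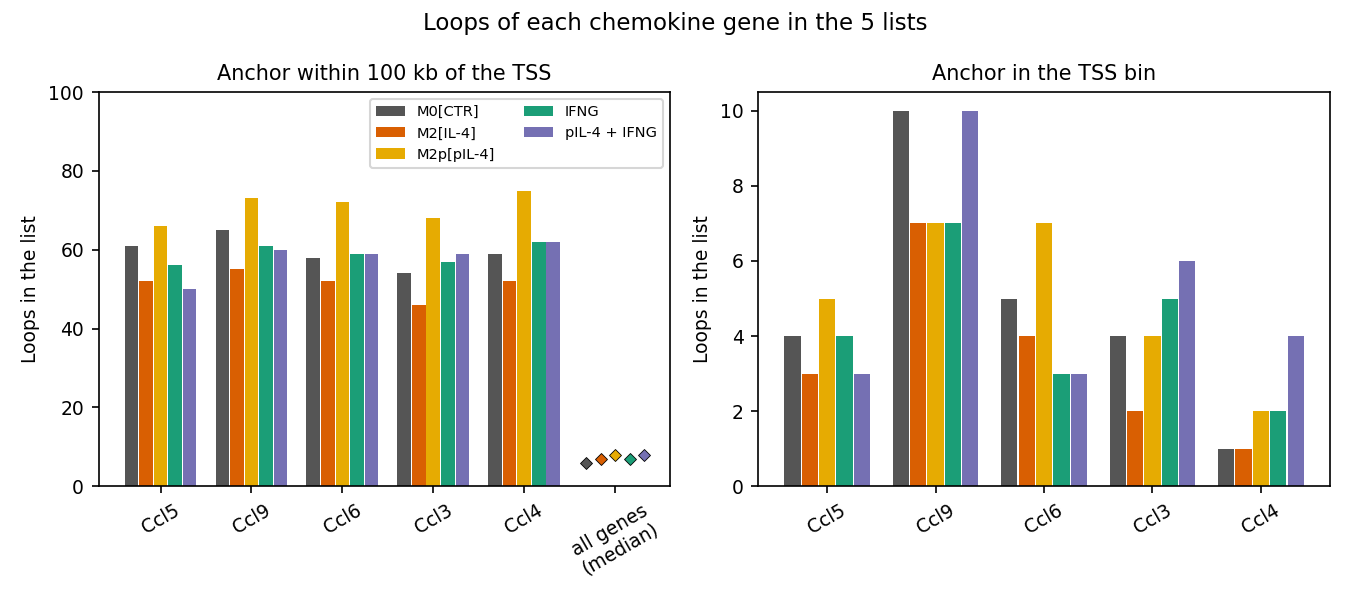
Bars give the number of loops in each list (y axis) for the 5 chemokine genes (x axis), with an anchor within 100 kb of the TSS on the left and in the 10 kb TSS bin on the right; diamonds mark the median over 21755 protein-coding genes. All bars on the left are between 46 and 75 loops, above the medians of 6 to 8, and on the right the Ccl9 bin reaches 10 loops while the Ccl4 bin has 1 to 4.

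The loops formed a nearly closed block. Both anchors lay inside the 34 bins for 64 loops in M0[CTR], then 56 in M2[IL-4] and 75 in M2p[pIL-4], beside 65 in the IFNG and 64 in the pIL-4 + IFNG list, or 92.8% to 100% of each list's loops near the chemokine genes. Each loop was taken for an anchor near these genes, which raises this share. It was not computed for other stretches of the genome. The median distance between anchors was 120 kb over the 137 bin pairs, beside 190 kb over the whole series, and the longest was 410 kb. The pairs reaching farthest out ended in bins of Ddx52, an RNA helicase gene, and each was in 1 list. They joined chr11:83540001-83550000 to chr11:83950001-83960000 with 16 contacts in M0[CTR] and the Heatr6 TSS bin to chr11:83940001-83950000 with 27 contacts in M2p[pIL-4].

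On the far side stood 3 bins, chr11:83730001-83760000, called here the bins that close the block. They were picked after the values were seen, as the 3 anchors beyond Ccl4 with the most bin pairs. Their high numbers follow in part from this choice. An anchor in them was present in 51 of the 137 bin pairs and in 17 of the 25 called in all lists. They made 28 loops in M0[CTR], then 28 in M2[IL-4] and 37 in M2p[pIL-4], beside 32 in the IFNG and 29 in the pIL-4 + IFNG list. The bin chr11:83730001-83740000, between Wfdc18 and Wfdc21, had 17 bin pairs, 9 of them in all lists, more than any other bin near the chemokine genes. It is called the downstream bin here and holds the CTCF consensus match without a mismatch shown above. The next bin, with the Wfdc21 TSS, had 21 bin pairs, 5 of them in all lists, and the bin with the Heatr6 TSS had 14, 3 of them in all lists. On the near side the bin between Ccl5 and Ccl9 at chr11:83560001-83570000 had 16 bin pairs and 5 in all lists.

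**Figure D2:**
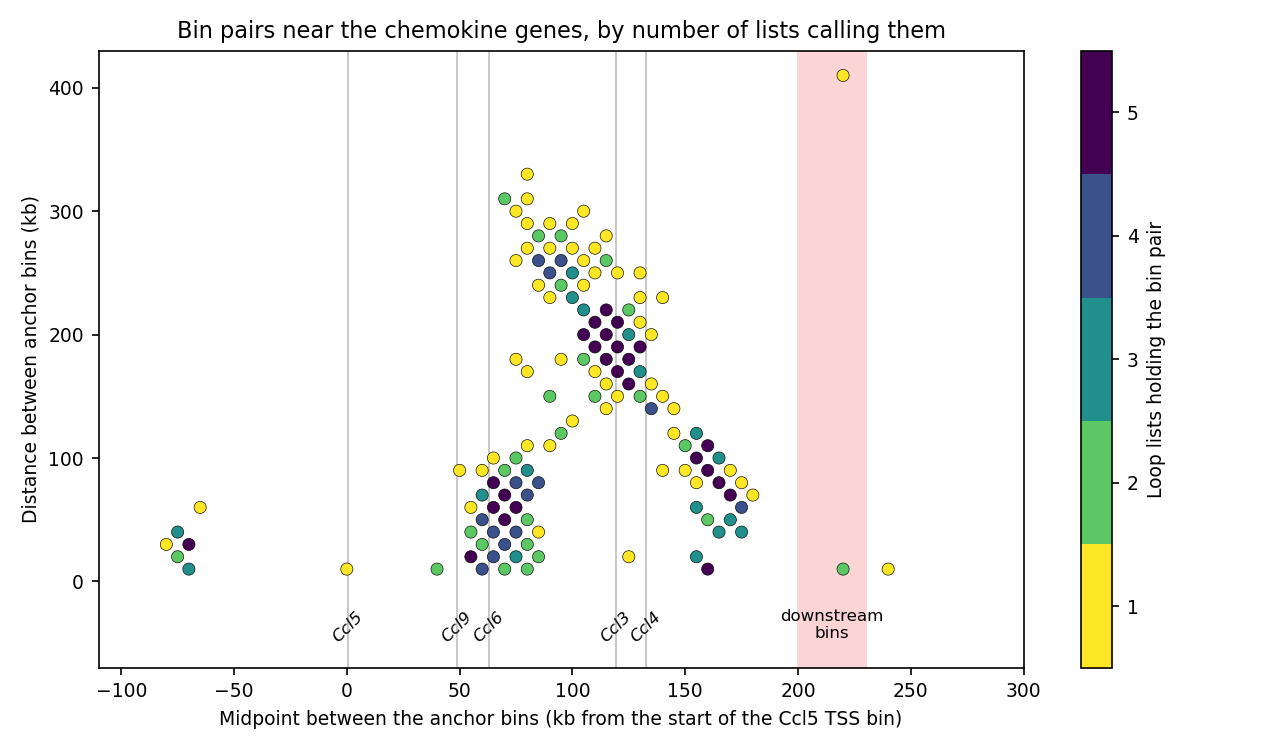
Each point is 1 of the 137 bin pairs, placed by the midpoint between its anchor bins (x axis, kb from the start of the Ccl5 TSS bin) and the distance between them (y axis, kb) and coloured by the number of lists that hold it; grey lines mark the TSSs and the band the 3 bins that close the block. The 25 bin pairs in all 5 lists lie mainly in 3 groups, below 100 kb between Ccl9 and Ccl3, near 200 kb where Ccl5 and the bins up to Ccl9 meet the 3 bins, and near 100 kb where Ccl3 and Ccl4 meet them.

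Every chemokine TSS bin was joined to the downstream bin, and for 4 of the 5 genes in all lists. The Ccl5 TSS bin, 200 kb away, had 37 contacts with it in M0[CTR], then 33 in M2[IL-4] and 28 in M2p[pIL-4], beside 30 in the IFNG and 26 in the pIL-4 + IFNG list. The Ccl9 TSS bin, 160 kb away, had in the same order 45, 40, 48, 45 and 42 contacts. The median over all loops of the same distance was 28 to 29 contacts at 200 kb and 31 to 33 at 160 kb. The Ccl9 counts lay above it in every list, and the Ccl5 counts under it in M2p[pIL-4] and pIL-4 + IFNG. The Poisson intervals of all lists overlapped for both genes, with the Ccl5 count highest in M0[CTR] and the Ccl9 count highest in M2p[pIL-4].

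The Ccl3 TSS bin, 90 kb from the downstream bin, had 36 contacts in M0[CTR], then 36 in M2[IL-4] and 51 in M2p[pIL-4], beside 33 in the IFNG and 50 in the pIL-4 + IFNG list. The lists of rested, IL-4 primed cells were thus the higher pair, with or without IFNG, but the Poisson intervals of all lists overlapped. The Ccl4 TSS bin, 70 kb away, had 54, 56, 44, 58 and 56 contacts, the lowest in M2p[pIL-4]. The Ccl6 TSS bin, 140 kb away, had 23 contacts in M0[CTR], 27 in IFNG, 27 in pIL-4 + IFNG and 28 after IL-4 was washed out, with no call in M2[IL-4]. These Ccl6 counts lay under the median over all loops of 140 kb in each list (33 to 35). The Ccl3 counts were under that of 90 kb (42 to 44) in M0[CTR], M2[IL-4] and IFNG. The Ccl4 count was under that of 70 kb (48 to 50) in M2p[pIL-4] only.

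Ccl5 alone of the 5 was joined to all 3 bins in every list. With the Wfdc21 TSS bin it had 30, 30, 35, 27 and 29 contacts and with the Heatr6 TSS bin 34, 29, 33, 39 and 31. Of the other 8 combinations of a chemokine TSS bin with these latter bins, 0 were called in all lists. The Ccl9 and the Ccl3 TSS bins were called with the Wfdc21 TSS bin in the same 3 lists, M0[CTR], IFNG and pIL-4 + IFNG, with 34, 36 and 37 contacts for Ccl9 and 28, 33 and 27 for Ccl3.

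Among all bins from the Ccl5 TSS bin to the Ccl4 TSS bin, 35 bin pairs were called in any list and 6 in all lists. The share over all combinations of these bins was not computed, so the next numbers are not read as few or many. Of the 10 combinations of chemokine TSS bins, 3 were called in any list and 1 in all. That of Ccl9 with Ccl6, 20 kb apart, had 76 contacts in M0[CTR], then 81 in M2[IL-4] and 84 in M2p[pIL-4], beside 81 in the IFNG and 86 in the pIL-4 + IFNG list. These counts stayed under the median of all loops of 20 kb in each list (88 to 94). Ccl9 with Ccl3, 70 kb apart, had 61 contacts in M2[IL-4], 53 in M0[CTR], 47 in pIL-4 + IFNG and 46 in M2p[pIL-4], with no call in IFNG. Ccl3 with Ccl4, 20 kb apart, was called in pIL-4 + IFNG alone, with 66 contacts (95% Poisson interval 51.0 to 84.0). That is under the median of 90 contacts over all loops of 20 kb in this list.

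**Figure D3:**
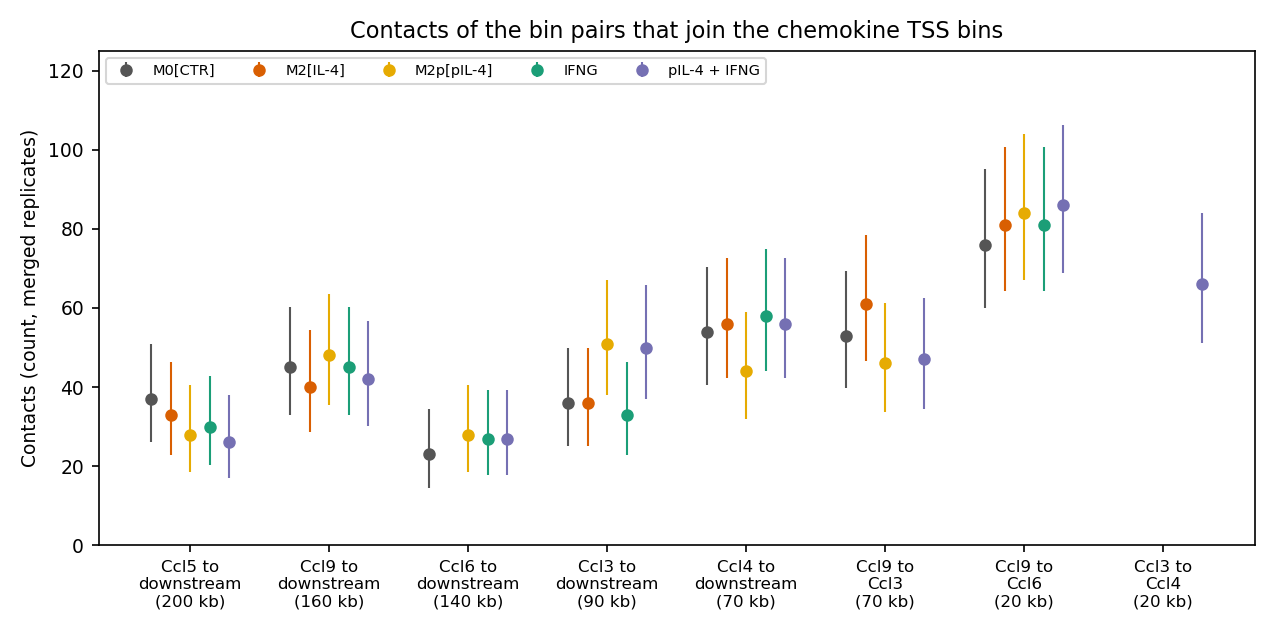
Points give the contacts (y axis) of the bin pairs that join a chemokine TSS bin to the downstream bin or to another chemokine TSS bin (x axis, with the distance), 1 point per merged list, with 95% Poisson intervals; a missing point means that the list does not hold the pair. The intervals of the lists overlap within every pair, Ccl9 with Ccl6 has the most contacts (76 to 86), and Ccl3 with Ccl4 has a point in pIL-4 + IFNG only.

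Ccl9 and Ccl6, whose TSS bins made the loop with the most contacts of these, are shown by the 250 bases before their RefSeq TSSs (GRCm38.p6, minus strand). Capitals mark the only run of at least 8 bases that a comparison of both in the same order found. A further shared run, acctttgccctc, overlaps the marked run in Ccl9 and lies before it in Ccl6. The comparison could not list both.
Ccl9, chr11:83578637-83578886: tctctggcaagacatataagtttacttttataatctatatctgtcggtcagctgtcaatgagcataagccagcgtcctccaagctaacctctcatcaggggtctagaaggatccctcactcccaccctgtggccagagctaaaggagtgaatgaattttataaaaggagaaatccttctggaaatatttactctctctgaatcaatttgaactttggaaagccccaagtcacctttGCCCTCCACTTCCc
Ccl6, chr11:83593088-83593337: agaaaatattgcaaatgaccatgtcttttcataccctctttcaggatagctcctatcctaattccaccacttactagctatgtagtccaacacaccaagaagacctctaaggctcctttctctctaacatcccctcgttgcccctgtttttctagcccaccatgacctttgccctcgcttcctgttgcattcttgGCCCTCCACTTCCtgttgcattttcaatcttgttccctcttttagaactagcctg
The marked run is 13 bases long and starts 14 bases before the Ccl9 TSS and 55 before that of Ccl6. It contains, on the other strand, the motif GGAAGT, a core bound by ETS factors such as the macrophage factor PU.1, which 19.7% of 32851 mouse promoters of this length hold on either strand. The Ccl3 promoter also held GGAAGT, 209 bases before its TSS. Of TTCNNNNGAA, the spacing bound by STAT6, none of the 3 promoters held a match, beside 5.85% of all promoters.

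Within the chemokine genes' own stretch, of the loops over 20 kb called in all 5 lists, those with the most contacts had an anchor in the Ccl9 TSS bin or the bin before it. The bin between Ccl5 and Ccl9 at chr11:83560001-83570000 had 77 contacts with chr11:83620001-83630000 in M0[CTR], then 73 in M2[IL-4] and 73 in M2p[pIL-4], beside 88 in the IFNG and 85 in the pIL-4 + IFNG list. These bins hold a facing pair of the matches printed above. The Ccl9 TSS bin had 70, 77, 81, 85 and 77 contacts with the same bin, which lies between Ccl6 and Ccl3. The most contacts of all, 197, 191, 224, 222 and 214, were between the adjacent bins chr11:83680001-83700000 beyond Ccl4, where the annotation has the pseudogenes Gm11438, Gm11432 and Gm11430.

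**Figure D4:**
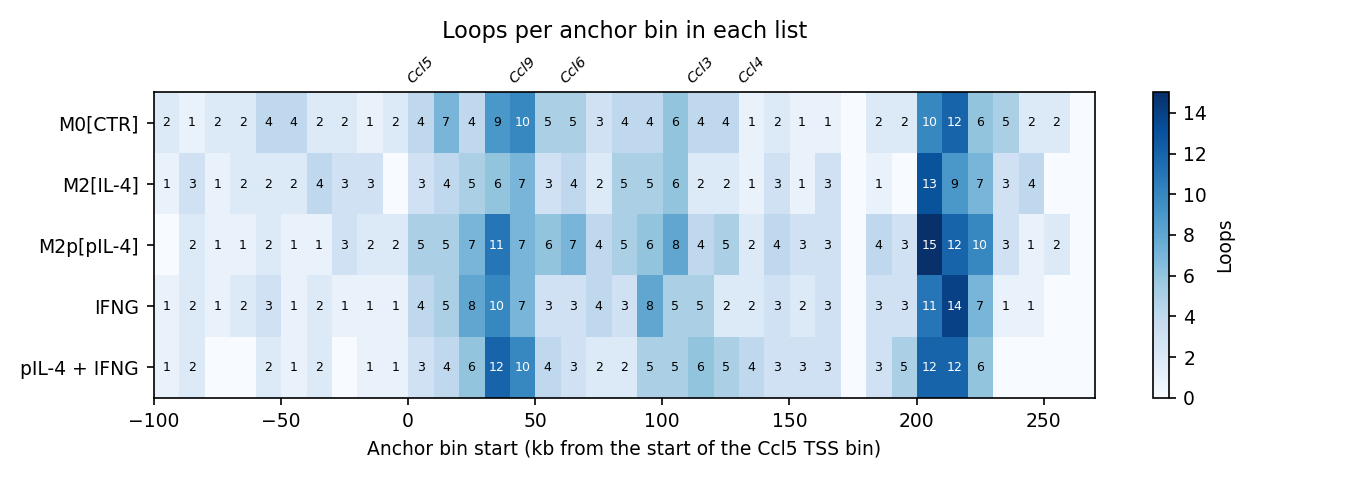
Each cell gives the number of loops (colour and digits) with an anchor in a 10 kb bin (x axis, kb from the start of the Ccl5 TSS bin) in each of the 5 lists (rows); an empty cell means 0 loops, and 2 bins farther out with 1 loop each are not drawn. In all lists the loops gather in the bins around the Ccl9 TSS and in those from 200 to 230 kb, while the bins from 230 to 260 kb hold loops in the 3 lists without IFNG, 1 in IFNG and 0 after priming and IFNG.

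The first question of the study was what IL-4 and its washing out do to loops. Near the chemokine genes the M2[IL-4] list had 60 loops and the M0[CTR] list 69, a ratio of 0.870 (95% interval 0.605 to 1.25), beside 1.09 for the whole lists. After washing and rest the M2p[pIL-4] list had 79, a ratio of 1.14 (0.818 to 1.61) to M0[CTR] and 1.32 (0.929 to 1.87) to M2[IL-4], beside 1.27 and 1.16 for the whole lists. All 3 intervals include 1 and the ratio of the whole lists. With equally long lists, keeping the loops with the most contacts relative to the median at the same distance, the numbers were 69 in M0[CTR], 55 in M2p[pIL-4] and 52 in M2[IL-4], so that the ratio of M2p[pIL-4] to M0[CTR] turned to 0.797.

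Few loops were without a counterpart. Of the 60 loops in M2[IL-4], 3 had no loop in M0[CTR] with both anchors within 25 kb (5%, beside 13.6% of the whole list). They were chr11:83510001-83520000 with chr11:83690001-83700000 (33 contacts), chr11:83540001-83550000 with chr11:83690001-83700000 (38 contacts), and the adjacent Wfdc21 and Heatr6 TSS bins (127 contacts). Of the 79 in M2p[pIL-4], 2 (2.53%, beside 14.1%) had no counterpart in M0[CTR]. These joined chr11:83520001-83530000, the bin of the Heatr9 TSS and the end of Ccl5, to chr11:83690001-83700000 (28 contacts) and chr11:83560001-83570000 to chr11:83680001-83690000 (45 contacts). The pseudogene bins beyond Ccl4 were thus an anchor of 2 of the 3 loops in M2[IL-4] and of both in M2p[pIL-4]. Against M2[IL-4], 1 of the 79 had none (1.27%, beside 12.9%), chr11:83550001-83560000 with chr11:83780001-83790000 (20 contacts).

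In M0[CTR], 2 of 69 loops had no counterpart in M2[IL-4] and the same 2 none in M2p[pIL-4]. They were the loop between the adjacent bins of Heatr9 and the Ccl5 TSS (120 contacts) and that of 410 kb to Ddx52. The study's class names were applied here to the presence of calls in these 3 lists, which is not how the study defined them. On this basis 1 of 60 loops was Transient (called with IL-4 only, 1.67%, beside 7.23% of all loops), 2 were Memory (called with IL-4 and after rest, 3.33%, beside 6.32%) and 0 of 79 were Primed (called after rest only, beside 8.35%). Of the 69 in M0[CTR], 67 had counterparts in both other lists (97.1%, beside 86.2%). A dense block offers more loops to match within 25 kb. With the same bins required, 38.3% of the M2[IL-4] loops and 44.3% of the M2p[pIL-4] loops were not in M0[CTR], beside 55.5% and 57.8%.

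Contacts at the bin pairs called in both lists hardly differed. A pair that lost or gained its call is left out here, which can draw these ratios towards no difference. Summed over 37 such pairs, M2[IL-4] had 2012 contacts and M0[CTR] 2051, a scaled log2 ratio of -0.03 (95% interval -0.12 to 0.06). Over 44 pairs, M2p[pIL-4] had 2317 and M0[CTR] 2304, a log2 ratio of -0.03 (-0.12 to 0.05), and over 39 pairs M2p[pIL-4] had 2082 and M2[IL-4] 2019, a log2 ratio of 0.00 (-0.09 to 0.09). None of these sums differed beyond counting error.

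The same bin pair stood lowest in both comparisons with M0[CTR]. The bin chr11:83650001-83660000, between the Ccl3 and Ccl4 TSS bins, had 65 contacts with the downstream bin in M0[CTR] but 37 in M2[IL-4], 45 in IFNG, 42 in M2p[pIL-4] and 48 after priming and IFNG. The ratio was 0.570 (0.370 to 0.866) in M2[IL-4] and 0.628 (0.416 to 0.940) in M2p[pIL-4]. It was the only pair near the chemokine genes 1.5-fold or more lower in each of these comparisons, where 1.41% and 1.53% of all pairs were, and 0 were as much higher (beside 2.19% and 1.81%). The median over all loops of 80 kb in M0[CTR] was 46 contacts. The M0[CTR] list, shared by both comparisons, holds the value that stands apart, and the two-sided exact binomial test did not pass (p = 0.0073 and p = 0.0228, both adjusted p = 1 over all pairs of the genome). In M2p[pIL-4] against M2[IL-4], chr11:83540001-83550000 with the Heatr6 TSS bin was lower by 1.5-fold or more (23 against 34 contacts, log2 ratio -0.61, 1 of 39 pairs beside 1.74%) and 0 pairs were as much higher (beside 1.65%). Without scaling of the lists this pair was inside that fold.

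The second question was the response to IFNG without and after priming. The IFNG list had 66 loops near the chemokine genes against 69 in M0[CTR], a ratio of 0.957 (0.672 to 1.36), beside 1.03 for the whole lists. The pIL-4 + IFNG list had 64, a ratio of 0.810 (0.573 to 1.14) to M2p[pIL-4] and of 0.970 (0.677 to 1.39) to IFNG, beside 0.989 and 1.22 for the whole lists. The intervals of all 3 include 1. The share without a counterpart within 25 kb was 2 of 66 in IFNG against M0[CTR] (3.03%, beside 13%), 2 of 64 in pIL-4 + IFNG, set against M2p[pIL-4] (3.13%, beside 11.4%) and the same number set against IFNG (3.13%, beside 13.5%).

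The IFNG loops without a counterpart were chr11:83560001-83570000 with chr11:83690001-83700000 (42 contacts) and 2 adjacent bins of Heatr6 (122 contacts). Loops that joined a bin between chr11:83510001 and chr11:83570000, around Ccl5 and up to Ccl9, to the pseudogene bins were thus called in every list but M0[CTR]. IFNG had 1 and the other 3 lists 2 each (31 and 44 contacts in pIL-4 + IFNG). Within 50 kb all 7 had a counterpart in M0[CTR]. These bins were picked after loops there were seen to lack a counterpart in M0[CTR], so their absence from that list follows from the choice. No share over comparable loops of the whole lists was computed. The Ccl3 to Ccl4 loop, described above, had no counterpart within 25 kb in either list that pIL-4 + IFNG was set against. Beside it stood the adjacent Wfdc21 and Heatr6 TSS bins against M2p[pIL-4] (131 contacts) and, against IFNG, chr11:83440001-83450000 in Mmp28, a matrix metalloproteinase gene, with the Heatr6 TSS bin (17 contacts).

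Loops near the chemokine genes with an anchor in the body of Heatr6, beyond the 3 bins that close the block, were fewer in number in both lists with IFNG. The windows around the TSSs end at chr11:83770000, so loops of the farther bins were counted only where the other anchor lay in the windows. On this count the bins chr11:83760001-83790000 anchored 9 loops in M0[CTR], then 7 in M2[IL-4] and 6 in M2p[pIL-4], beside 1 in the IFNG and 0 in the pIL-4 + IFNG list. The ratio was 0.111 (0.00253 to 0.802) for IFNG to M0[CTR], and for pIL-4 + IFNG to M2p[pIL-4] the interval reached from 0 to 0.849, or to 1.51 with equally long lists, where M2p[pIL-4] keeps 4. These bins were picked with their loop numbers known, and the loops in the 3 lists without IFNG had 15 to 27 contacts. Of the 9 loops in M0[CTR], 7 had a counterpart within 25 kb in IFNG and 7 in pIL-4 + IFNG, so that neighbouring bin pairs were called there. The 1 loop in IFNG joined adjacent bins. Among those without a counterpart was that of the Ccl5 TSS bin with chr11:83780001-83790000 in M2p[pIL-4] (27 contacts, 250 kb), which had none in pIL-4 + IFNG.

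The numbers also differed for loops that span the whole cluster, from a bin before the Ccl5 TSS bin to a bin after that of Ccl4. These numbered 13 in each list without IFNG, 7 in IFNG and 6 after priming and IFNG. With equally long lists M0[CTR] had 13, M2[IL-4] had 12 and M2p[pIL-4] had 8, which was next to the 7 of IFNG, and 4 were left after priming and IFNG. The ratios were 0.538 (0.182 to 1.45) for IFNG to M0[CTR] and 0.462 (0.144 to 1.30) for pIL-4 + IFNG to M2p[pIL-4], both within counting error, and some of these loops are those of the Heatr6 body. Where such a pair was called in 4 lists its contacts were alike. The bin chr11:83490001-83500000 in Taf15, a gene of an RNA-binding protein, had 22 contacts with the Heatr6 TSS bin each in M0[CTR] and M2[IL-4] and 23 and 21 in the lists with IFNG, without and after priming.

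Contacts at bin pairs called in both lists also hardly differed with IFNG, again with pairs left out whose call was lost or gained. Over 42 pairs the log2 ratio of the sums was 0.00 (-0.09 to 0.09) for IFNG to M0[CTR], over 46 pairs 0.06 (-0.03 to 0.14) for pIL-4 + IFNG to M2p[pIL-4], and over 45 pairs 0.01 (-0.08 to 0.09) for pIL-4 + IFNG to IFNG. At 1.5-fold, 0 pairs were higher or lower in the former 2 comparisons, beside 1.8% and 1.55% of all pairs for IFNG to M0[CTR] and 1.76% and 1.71% for pIL-4 + IFNG to M2p[pIL-4]. In pIL-4 + IFNG against IFNG, 2 of 45 were higher (beside 1.82%) and 0 lower (beside 1.68%).

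Both of these pairs joined the downstream bin. One was the Ccl3 TSS bin, with 50 contacts in pIL-4 + IFNG and 33 in IFNG (log2 ratio 0.62), while M2p[pIL-4] had 51. The other was chr11:83560001-83570000, beside Ccl9, with 51 contacts in M0[CTR], then 35 in M2[IL-4] and 43 in M2p[pIL-4], beside 40 in the IFNG and 62 in the pIL-4 + IFNG list. Its ratio in pIL-4 + IFNG was 1.57 to IFNG (1.04 to 2.40) and 1.46 to M2p[pIL-4] (0.974 to 2.21), with exact binomial p = 0.0309 and p = 0.0676, both adjusted p = 1.

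Of 16562 bin pairs called in all 4 lists, 31 lay near the chemokine genes, and the difference between the IFNG responses with and without priming was tested in each by Fisher's exact test. Unlike the ratios above, this test and its ratio of ratios used contacts without scaling of the lists. At chr11:83560001-83570000 with the downstream bin, the contacts went from 51 to 40 without priming and from 43 to 62 after it, a log2 ratio of ratios of 0.88 (Fisher's exact p = 0.0447, adjusted p = 1). It was the only one of the 31 at an unadjusted p below 0.05, beside 413 of all pairs, and 0 pairs passed after adjustment, near the chemokine genes or elsewhere.

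In none of the 6 comparisons did a bin pair near the chemokine genes pass the exact binomial test after adjustment (smallest adjusted p = 1). Only pairs called in both lists of a comparison were tested, so a pair whose call was lost or gained could not pass. Unadjusted p was below 0.05 for 1 pair in M2[IL-4], M2p[pIL-4] and IFNG against M0[CTR], each the pair between Ccl3 and Ccl4 and the downstream bin, and for 1 in pIL-4 + IFNG against IFNG. Over all pairs of the genome, 1.76%, 1.56% and 1.47% had such a p in M2[IL-4] against M0[CTR], M2p[pIL-4] against M0[CTR] and M2p[pIL-4] against M2[IL-4]. With IFNG they were 1.67% against M0[CTR], and for the primed cells 1.77% against M2p[pIL-4] and 1.57% against IFNG. After adjustment 0 of all pairs passed except 2 in IFNG against M0[CTR] (0.00797%). With contacts summed per anchor bin, 0 of 26 to 29 anchors passed in each comparison, beside 0 of all anchors except 4 in IFNG against M0[CTR] (0.0187%). At an unadjusted p below 0.05 stood chr11:83650001-83660000 in M2p[pIL-4] against M0[CTR] (136 against 170 contacts, ratio 0.778, 0.616 to 0.980) and, in M2p[pIL-4] against M2[IL-4], chr11:83540001-83550000 (79 against 105 contacts, ratio 0.731) and chr11:83580001-83590000 (146 against 180 contacts, ratio 0.788). Over all anchors, 1.52% and 1.44% had such a p in these comparisons, and near the chemokine genes 0 had one in the other 4, beside 1.92% in M2[IL-4] against M0[CTR], 1.88% in IFNG against M0[CTR], and 1.8% and 1.5% in the primed cells with IFNG against M2p[pIL-4] and IFNG. No chemokine TSS bin was among them. The Ccl9 TSS bin, with the most contacts of the TSS bins at pairs called in both lists, had ratios from 0.963 to 1.04 over the 6 comparisons.

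**Figure D5:**
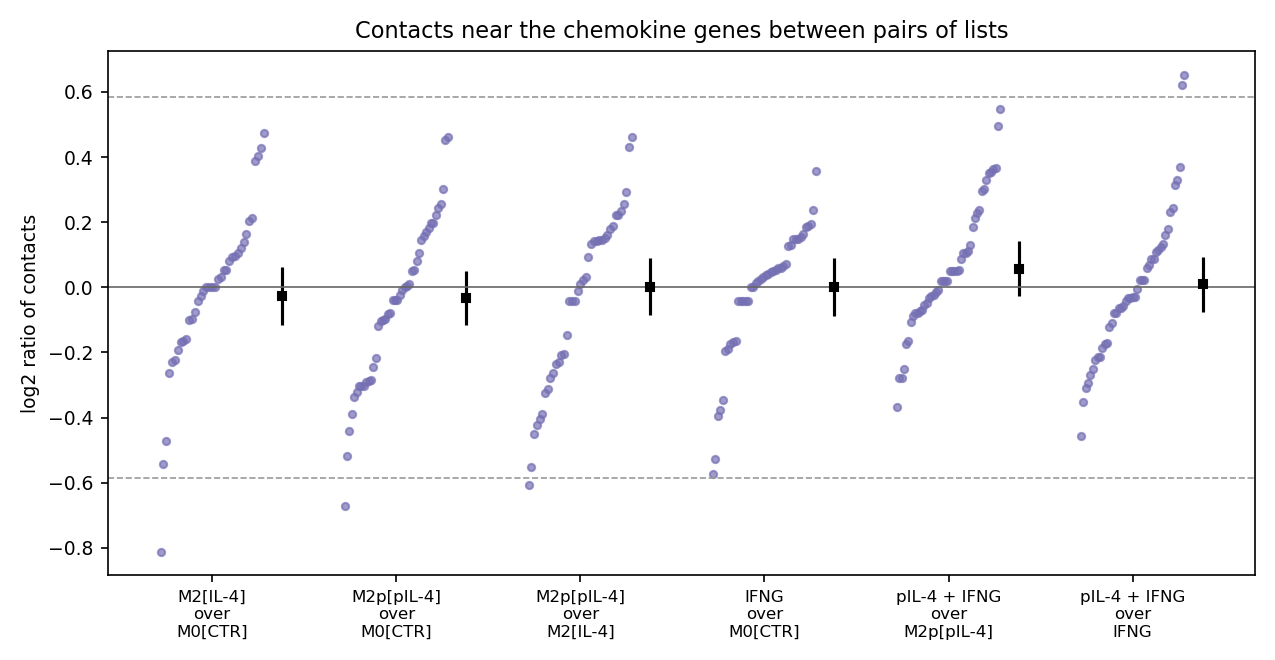
Points give the scaled log2 ratio of contacts (y axis) of each bin pair near the chemokine genes called in both lists of a comparison (x axis), sorted within it; squares give the ratio of the sums with its 95% interval and dashed lines a 1.5-fold difference. All 6 squares lie within 0.06 of 0 and 5 points pass a dashed line, 3 below and 2 above.

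The other genes of the pathway gave a scale for these numbers. The 5 chemokine genes had 0 members with 1.5-fold more or fewer loops within 100 kb, relative to list length and with a pseudocount of 1, in any comparison. Over all genes with loops, 15.3% were higher and 13.8% lower in M2[IL-4] against M0[CTR], 16% and 10.4% in M2p[pIL-4] against M0[CTR], 15.7% and 12% in M2p[pIL-4] against M2[IL-4], and 16.6% and 14.3% in IFNG against M0[CTR]. In pIL-4 + IFNG they were 15.3% and 12.1% against M2p[pIL-4] and 14.2% and 11.5% against IFNG. The median log2 fold of the 5 genes was -0.35 in M2[IL-4] against M0[CTR], beside -0.03 over all genes, 0.24 in M2p[pIL-4] against M2[IL-4], beside -0.01, and -0.28 in pIL-4 + IFNG against IFNG, beside -0.02. The 5 genes have the same loops in large part, so their common direction is close to 1 observation.

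The receptor genes Ccr1, Ccr3 and Ccr2, which lie together on another chromosome and encode receptors of several of these ligands and of Ccl2, were as dense in loops. Ccr1 had 53 loops within 100 kb in M0[CTR], then 54 in M2[IL-4] and 61 in M2p[pIL-4], beside 59 in the IFNG and 65 in the pIL-4 + IFNG list. None of these 3 passed 1.5-fold in any comparison. Ackr2, which encodes a scavenging receptor, had 0, 8, 7, 7 and 9 loops and passed it upward in the 3 comparisons against M0[CTR]. Ccl2, the monocyte attractant of the neighbouring cluster on chromosome 11, had 28, 28, 32, 38 and 47 loops, with both IFNG lists higher than their controls. Its rise stayed under 1.5-fold.

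Of 11 other CC chemokine genes, all had loops in the comparisons of pIL-4 + IFNG and 10 in the others. Of these, 2 passed 1.5-fold upward in M2[IL-4] and in M2p[pIL-4] against M0[CTR] (Ccl1 and Ccl25). In IFNG against M0[CTR] 1 did (Ccl1), and 1 in each comparison of pIL-4 + IFNG (Ccl20). In pIL-4 + IFNG, Ccl25 was lower than in M2p[pIL-4] and Ccl1 lower than in IFNG. All 3 have 0 to 4 loops in every list, at which 1 loop decides such a fold. Of the regulator genes Nfkb1, Rela, Irf1, Stat6 and Egr2, 1 passed 1.5-fold in any comparison. This was Egr2, a factor induced by IL-4, with 48, 81, 64, 48 and 77 loops, which passed it upward in M2[IL-4] against M0[CTR].

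Of the 137 bin pairs near the chemokine genes, 25 were in all 5 lists (18.2%, beside 9.18% of the whole series) and 56 in 1 list (40.9%, beside 55.5%). The Ccl2 cluster had 74 bin pairs, 21.6% of them in all lists and 50% in 1 list. No test was made of these shares, and nothing particular to these genes is read from them. The bin pairs here are shorter than in the whole series, and the part of distance in these shares was not tested. Of the 56 in 1 list, 17 were in M2p[pIL-4], 11 each in IFNG and M2[IL-4], 12 in M0[CTR] and 5 in pIL-4 + IFNG. The whole lists held 67728 loops in M2p[pIL-4], 55012 in IFNG, 58260 in M2[IL-4], 53424 in M0[CTR] and 67000 in pIL-4 + IFNG. The same split per list over the whole series was not computed, so nothing is read from these numbers.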

How the data were processed

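Hi-C was performed on 10 samples (5 groups of 2). Per the labels, the authors processed reads with FastQC, Bowtie2, HiC-Pro, Juicer and HOMER on mm10. The deposited values are whole-number contact counts of bin pairs, 1 loop list per group with replicates merged. The lists have 10 kb bins, while the study's methods describe loops at 25 kb; the caller and threshold of these lists are not given in the sources used here. The chemokine genes and gene lists were chosen with earlier results of these data known.

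Loops were assigned to genes by TSS (GENCODE GRCm38 annotation). Loops matched when both anchors lay within 25 kb. Contacts at bin pairs in both lists were scaled by their genome-wide sum, with exact conditional binomial intervals and two-sided exact binomial tests, Benjamini-Hochberg adjusted over the genome. Shares have Wilson intervals. Code was tested on simulated lists (Python 3.11.15, scipy 1.17.1). Promoters came from RefSeq for 3 of the 5 genes. The rule for naming bin pairs took those of each gene and those in all lists with the most contacts, and the longest. For each comparison it took the pair with the smallest unadjusted binomial p in each direction. Other bin pairs were named with their values known. Some genes of the pathway lists are not reported here.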

Additional observations from a re-analysis of the deposited data

How the results depend on the processing

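No paired analysis was possible because replicates were merged into 1 list per group, and for the same reason no replicate could be left out. Over 54 results, 108 alternative values were computed, of which 88 stayed within the counting interval of the value reported or within 1.5 times a count. Matching was the choice that mattered most. With the same bins required, the share of loops without a counterpart was 38.3% in M2[IL-4] and 44.3% in M2p[pIL-4] against M0[CTR], 50.6% in M2p[pIL-4] against M2[IL-4], 36.4% in IFNG against M0[CTR], and 28.1% and 29.7% in pIL-4 + IFNG, set against M2p[pIL-4] and IFNG. Then 31 loops were shared, 27 Primed, 15 Transient and 8 Memory, and of those in M0[CTR] 19 were stably and 13 transiently repressed. Within 50 kb the share was 1.67% in M2[IL-4] against M0[CTR] and 0% in M2p[pIL-4] against M0[CTR] and M2[IL-4] and in pIL-4 + IFNG against IFNG. With equally long lists the ratio of loop numbers of M2p[pIL-4] to M0[CTR] turned to 0.797, and the share without a counterpart was 0% in M2p[pIL-4] against M2[IL-4] and in pIL-4 + IFNG against IFNG. Without scaling, 0 bin pairs were 1.5-fold lower in M2p[pIL-4] against M2[IL-4]. The equally long lists for the Heatr6 body and the spanning loops were chosen after seeing the data. Depth limits single bin pairs: at 62 against 40 contacts the interval of the ratio ran from 1.04 to 2.40.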
